A study of Mus musculus with 30 samples.

Results

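Rhox5, Rhox2a and Dppa3 are genes best known from gonads, germ cells and early embryos that were read in the epithelium of the neonatal mouse thymus. They are 3 of the 18847 genes in the deposited expression table, chosen by symbol, and each is described in all 30 libraries. Values are FPKM, the number of fragments scaled to transcript length and to library size. The study treated B6.SJL mouse pups of mixed sex on day 1 after birth with VEGF-Trap (aflibercept, a soluble decoy receptor that binds vascular endothelial growth factor) or with a human Fc protein as control, and collected thymus on day 3. Stroma was depleted of CD45+ cells with magnetic beads and sorted into 5 populations, each with 4 Trap and 2 control libraries. The populations were cortical thymic epithelial cells (cTEC, EpCAM+ Ly51+), medullary thymic epithelial cells (mTEC, EpCAM+ with low or no Ly51), CD140a+ mesenchyme and CD146+ mesenchyme (both negative for EpCAM and CD31) and endothelium (EpCAM- CD31+), all gated without CD45, CD3, CD4, CD8 and Ter119. The labels do not say how many pups stand behind a library or that the libraries came from separate pups, so every p-value measures the spread between these libraries. RNA was amplified to cDNA before sequencing.

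Rhox genes encode homeodomain transcription factors and lie together on the X chromosome. They are expressed mainly in testis, epididymis, ovary and placenta, and DNA methylation keeps much of the cluster silent in other embryonic tissue. Rhox5, also called Pem, is the founding member and is made in Sertoli cells under androgen control. Dppa3, also called Stella or PGC7, marks primordial germ cells and, as a maternal protein of the egg, protects DNA methylation in the early embryo. The thymic medulla is known for expressing genes of many other tissues, under the regulators Aire and Fezf2, so that developing T cells that recognise them can be removed.

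Rhox2a (ENSMUSG00000051827.11, 4 exons) lies on X (chrX:37244976-37249686, GRCm38, plus strand) and Rhox5 (ENSMUSG00000095180.8) further along the same cluster (chrX:37804842-37808876, plus strand). Dppa3 (ENSMUSG00000046323.8, 4 exons) lies on chromosome 6 (chr6:122626410-122630272, plus strand). In the annotation used here (GENCODE M21), Rhox2a is 1 of 8 protein-coding Rhox2 copies, of which 5 have rows in the table. The copies are shown because they decide how far a Rhox2a value can be told from its neighbours' values. Over 573 coding bases, Rhox2a differed from Rhox2e at 2 positions (T111C and G549A, the Rhox2a base first, counted from 1 at the first coding base), from Rhox2b at 5, from Rhox2c at 7 and from Rhox2f at 18. Coding bases 81 to 140 are printed in lower case with the bases that differ among the 5 copies in capitals. They lie at chrX:37245262-37245321 in Rhox2a, chrX:37412353-37412412 in Rhox2b, chrX:37453929-37453988 in Rhox2c, chrX:37530738-37530797 in Rhox2e and chrX:37571691-37571750 in Rhox2f, all on the plus strand.
Rhox2a: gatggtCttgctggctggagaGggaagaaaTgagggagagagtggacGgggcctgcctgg
Rhox2b: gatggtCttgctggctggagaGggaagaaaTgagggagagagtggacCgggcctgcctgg
Rhox2c: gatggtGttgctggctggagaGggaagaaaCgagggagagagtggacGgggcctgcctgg
Rhox2e: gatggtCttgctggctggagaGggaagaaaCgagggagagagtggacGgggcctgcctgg
Rhox2f: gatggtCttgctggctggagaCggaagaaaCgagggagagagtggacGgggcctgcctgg
The other difference between Rhox2a and Rhox2e stands in coding bases 519 to 573, again in capitals. This stretch is spliced and spans an intron in the genome (chrX:37247215-37249508 in Rhox2a and chrX:37539329-37541631 in Rhox2e, plus strand).
Rhox2a: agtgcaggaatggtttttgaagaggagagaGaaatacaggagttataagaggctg
Rhox2e: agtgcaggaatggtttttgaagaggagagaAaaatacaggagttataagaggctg
Of all 150-base windows of the longest Rhox2a transcript, 48.6% also occurred in a transcript of another gene, and for 50-base windows the share was 93.4%. For Rhox2e the shares were 76.9% and 100%. How the submitters assigned reads that match several copies is not given in the sources used here, so single Rhox2 values are uncertain. No window of either length in Rhox5 occurred in another gene.

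Dppa3 has a processed pseudogene, Dppa3-ps, which sits inside the Rhox cluster (chrX:37625647-37626097, minus strand) and was not analysed here. It is shown because its reads could be taken for Dppa3. The pseudogene differed from Dppa3 at 8 of 448 compared bases (98.2% identity). Coding bases 88 to 177 of Dppa3 (spliced, spanning an intron, chr6:122626610-122628665, plus strand) and the aligned stretch of Dppa3-ps (chrX:37625923-37626012, minus strand) differ at the bases in capitals.
Dppa3: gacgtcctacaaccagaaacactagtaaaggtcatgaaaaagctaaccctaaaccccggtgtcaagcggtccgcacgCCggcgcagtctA
Dppa3-ps: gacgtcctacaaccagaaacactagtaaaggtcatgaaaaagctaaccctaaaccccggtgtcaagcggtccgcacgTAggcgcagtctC
Of the 50-base windows of Dppa3, 17.7% also occurred in Dppa3-ps or in one of the other matching transcripts (Gm15620 and Gm47576), and none of its 150-base windows did.

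The step between neighbouring low FPKM values gave an estimate of depth, 14900000 to 24000000 fragments per library and 17400000 to 24000000 in the 12 epithelial libraries. At that depth a value of 0 allows up to 3 fragments, which are worth 0.19 to 0.30 FPKM for Rhox5, 0.18 to 0.29 FPKM for Rhox2a and 0.17 to 0.27 FPKM for Dppa3. These limits cover counting error only, since fragments of amplified cDNA are not independent molecules. The sort labels held for most markers: 12 of 13 cTEC markers were higher in cTEC and 12 of 13 mTEC markers were higher in mTEC (beside 15.7% and 32.1% of all genes). Summed mTEC markers were 557 to 905 FPKM in cTEC Trap and 271 to 639 FPKM in cTEC control libraries. In mTEC they were 1534 to 3068 FPKM with Trap and 1284 and 1954 FPKM in control. Summed cTEC markers were 339 to 349 FPKM in mTEC Trap and 2464 to 3063 FPKM in cTEC Trap. The part of mTEC RNA in the cTEC values was not tested. Mean Aire was 1.05 ± 0.65 FPKM in the cTEC libraries against 126 ± 22 FPKM in the mTEC libraries (SD, n = 6 each), and mean Fezf2 was 1.21 ± 0.56 FPKM in cTEC libraries against 121 ± 17 FPKM in mTEC libraries. Summed thymocyte markers were 158 to 263 FPKM in cTEC Trap, 120 to 173 FPKM in cTEC control, 23.9 to 54 FPKM in mTEC Trap and 29.1 to 43.4 FPKM in mTEC control libraries, and 13 of the 14 markers reached a mean of 1 FPKM in cTEC and 4 in mTEC. Pups were of mixed sex, and the summed FPKM of 4 Y-linked genes was 96.78, 54.92, 80.05 and 7.66 in cTEC Trap replicates 1 to 4, 34.29 and 54.72 in the cTEC controls, 75.77, 57.16, 65.58 and 23.12 in mTEC Trap replicates 1 to 4, and 18.74 and 57.16 in the mTEC controls. Trap replicate 4 was the lowest and Trap replicate 1 the highest of the Trap libraries in all 5 populations, and control replicate 1 was below control replicate 2 in all 5. Trap replicate 4 thus stands apart from the other Trap libraries, though in mTEC control replicate 1 (18.74 FPKM) was lower still. Without Trap replicate 4, the log2 differences of Trap against control were -2.32 for Rhox5 in cTEC, -2.42 for Rhox2a in mTEC and -1.25 for Dppa3 in mTEC. The part of thymocyte RNA in the cTEC values, Rhox5 included, and of male RNA in the values of the X-linked Rhox genes was not tested.

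The 3 genes were chosen with these values in view, so their levels and differences are given as a description with no test. Each was found in epithelium, and the row of each was highest in 1 epithelial population. For Rhox2a this holds for its row only, since reads may be shared with other copies. Rhox5 reached 1 FPKM only in the 2 cTEC control libraries, Rhox2a only in 3 mTEC libraries and Dppa3 only in the 6 mTEC libraries. All passed the filter of the epithelial fit (1 FPKM or more in at least 2 of 12 libraries), Rhox5 through the cTEC controls alone. None of the 3 reached 1 FPKM in any of the 18 libraries from mesenchyme and endothelium. Rhox5 and Rhox2a were listed at 0 in all 18. Dppa3 was listed at 0 in 14 of them, and the others were CD146 Trap replicate 4 with 0.49 FPKM, the CD146 controls with 0.49 and 0.07 FPKM and endothelial control replicate 2 with 0.07 FPKM.

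**Figure D1:**
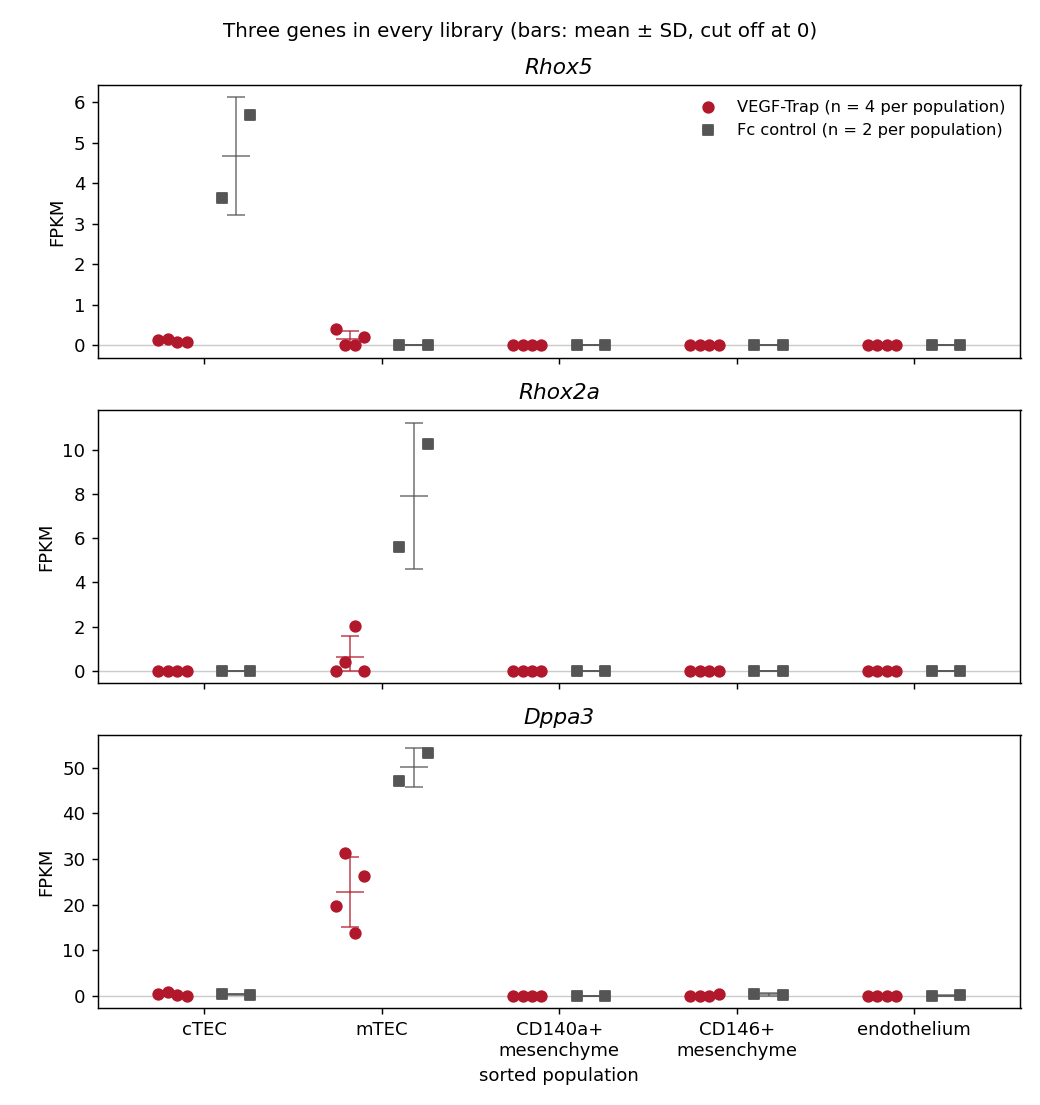
FPKM (vertical axis, linear) of Rhox5, Rhox2a and Dppa3 in each of the 30 libraries, by sorted population, with VEGF-Trap (red circles, n = 4) left of Fc control (grey squares, n = 2) and bars for the mean ± SD, cut off at 0. Rhox5 stood out in the 2 cTEC controls (3.64 and 5.69 FPKM), Rhox2a in the 2 mTEC controls (5.59 and 10.29 FPKM), and Dppa3 in all mTEC libraries, with the 4 Trap values (13.78 to 31.41 FPKM) below both controls (47.04 and 53.15 FPKM).

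Rhox5 was near 0 in cTEC of Trap-treated pups and at a few FPKM in cTEC of control pups. The cTEC Trap libraries had 0.13, 0.15, 0.08 and 0.08 FPKM, about 2, 2, 1 and 1 fragments, and the cTEC control libraries had 3.64 and 5.69 FPKM, about 47 and 71 fragments. All 4 Trap libraries lay below both controls and below the worth of 3 fragments. The groups averaged 0.11 ± 0.036 FPKM with Trap and 4.67 ± 1.45 FPKM in control (SD, n = 4 and 2), a difference of -2.33 on the log2(FPKM + 1) scale, which understates the change of low genes. In mTEC, Rhox5 had 0.40, 0, 0 and 0.21 FPKM with Trap and 0 in both controls. The mTEC Trap libraries thus held at most about 6 fragments, and the mTEC difference was 0.19 on the same scale. The mTEC control value of 0 and the cTEC Trap values did not differ beyond what a few fragments allow, so the 2 cTEC controls alone stood at the top of the order.

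The row of Rhox2a was above 0 only in mTEC, at a few FPKM in control pups and less in Trap-treated pups. Since its reads may be shared with near-identical copies, the row alone does not place Rhox2a in mTEC. The mTEC Trap libraries had 0, 0.39, 2.03 and 0 FPKM, about 0, 5, 27 and 0 fragments, and the mTEC control libraries had 5.59 and 10.29 FPKM, about 67 and 144 fragments. Both controls lay above all 4 Trap libraries. The means were 0.605 ± 0.97 FPKM with Trap and 7.94 ± 3.32 FPKM in control (SD, n = 4 and 2), a difference of -2.59 on the log2(FPKM + 1) scale. In cTEC, Rhox2a was listed at 0 in all 6 libraries.

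This separation was not seen when the near-identical copies were added together. The sum of the 5 Rhox2 rows was 0, 3, 2.29 and 33.27 FPKM in mTEC Trap replicates 1 to 4, and 5.59 and 20.56 FPKM in the mTEC controls. In Trap replicate 4, the mTEC Trap library with the lowest Y-linked sum (23.12 FPKM), where Rhox2a was listed at 0, Rhox2e had 31.98 FPKM, and in control replicate 2 Rhox2e had 6.78 FPKM beside 10.29 FPKM of Rhox2a. In mTEC control replicate 1, where the Y-linked sum was lower (18.7 FPKM), Rhox2a made up all of the 5.59 FPKM. A link between sex and the Rhox2 values was not tested. The groups therefore overlapped for the sum, at 9.64 ± 15.8 FPKM with Trap and 13.1 ± 10.6 FPKM in control, a log2 difference of -1.37. Without Trap replicate 4, the library with the highest sum, the log2 difference of the sum was -2.34, and the other 3 Trap libraries lay below both controls. The share of all genes with that pattern was not counted, and the library left out is the one that made the groups overlap, so nothing is read from it. Both sums were added after seeing the data. In cTEC the sum was 1.17 to 3.64 FPKM with Trap and 1.13 and 4.40 FPKM in control, so Rhox2 transcripts were detected in cTEC although Rhox2a itself was at 0.

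**Figure D2:**
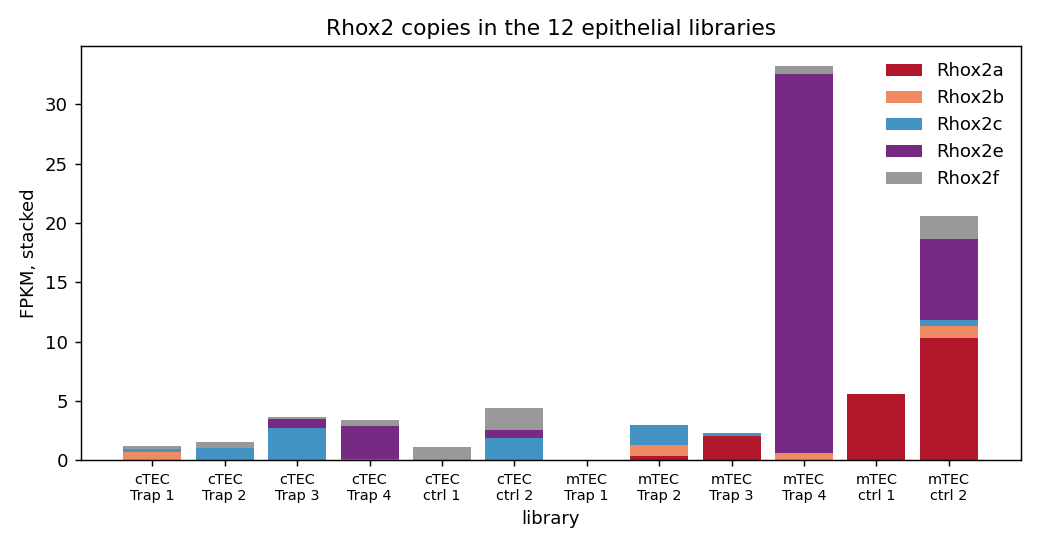
Stacked FPKM (vertical axis, linear, from 0) of the 5 Rhox2 rows in the 12 epithelial libraries, Trap left of control within cTEC and mTEC. The tallest bar is mTEC Trap replicate 4, at 33.27 FPKM and nearly all Rhox2e, while Rhox2a makes up all of mTEC control replicate 1 and about equal parts with the other copies of mTEC control replicate 2 (10.29 of 20.56 FPKM).

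Dppa3 was the most abundant of the 3 and was expressed in every mTEC library, at a lower level with Trap. The mTEC Trap libraries had 19.66, 31.41, 13.78 and 26.25 FPKM, about 329, 421, 193 and 414 fragments, and the mTEC control libraries had 47.04 and 53.15 FPKM, about 592 and 788 fragments. The ranges did not overlap. The means were 22.8 ± 7.69 FPKM with Trap and 50.1 ± 4.32 FPKM in control (SD, n = 4 and 2), a log2 difference of -1.16. In cTEC, Dppa3 had 0.37, 0.81, 0.13 and 0 FPKM with Trap and 0.39 and 0.20 FPKM in control, about 12 fragments or fewer in each library, and the groups overlapped. The cTEC level of Dppa3, 0.317 ± 0.28 FPKM over 6 libraries, was of the order of that in CD146+ mesenchyme, 0.175 ± 0.25 FPKM. In bulk libraries, fewer expressing cells and less RNA per cell cannot be told apart.

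For reading these 3 separations, the same pattern was counted over all genes. Every Trap library lay below both controls for 8.10% of the 15049 genes tested in cTEC and for 8.48% in mTEC, and above both controls for 5.85% and 5.32%. The test across all genes (limma on log2(FPKM + 1), two-sided, Benjamini-Hochberg adjustment, adjusted p below 0.05) called 1 gene (0.00664%) for Trap in cTEC and 1 gene (0.00664%) in mTEC. The cTEC call was Rhox5 itself, which may have been chosen on this contrast, and nothing is read from it. The mTEC call was Magea1. Both genes passed the filter through the 2 controls of their population alone, so their direction was fixed by it. Magea1, an X-linked cancer-testis gene that was not among the lists and is named because it was the single mTEC call, had 0, 0, 0.29 and 0 FPKM in mTEC Trap and 2.94 and 4.34 FPKM in mTEC control libraries. It was listed at 0 in cTEC and in all 18 other libraries. No gene was called for the mean Trap change of cTEC and mTEC, where 1260 genes had an unadjusted p below 0.05, or for the difference between the Trap changes, where 563 had (both limma). Other tools were not run on these contrasts. The counts rest on single libraries: the cTEC count was 0 without either cTEC control, and the mTEC count was 0 without mTEC control replicate 1, 11 without mTEC control replicate 2, 2 without mTEC Trap replicate 3 and 8 without mTEC Trap replicate 4.

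Of the 34 protein-coding Rhox genes of the annotation, 11 had rows in the table and the others were not analysed here. All 11 were listed at 0 in every mesenchymal and endothelial library. Of the 9 besides Rhox5 and Rhox2a, 5 passed the filter, Rhox4b, Rhox12, Rhox2c, Rhox2e and Rhox2f. Since all 5 are at 0 in the other stroma, they passed the filter through epithelial libraries alone and their direction was fixed by it, so their differences from the other stroma are a description. The log2 differences were 1.88 ± 0.15 for Rhox4b, 1.04 ± 0.09 for Rhox12, 0.95 ± 0.41 for Rhox2e, 0.68 ± 0.12 for Rhox2f and 0.58 ± 0.18 for Rhox2c (± SE). That of Rhox2e ran from 0.58 to 1.32 when 1 library was left out. Over all 16425 genes tested, 62.2% were called between epithelium and the other stroma (limma, adjusted p below 0.05) and 40.5% were higher in epithelium, and nothing is read from these shares about the Rhox genes.

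Rhox12 was a gene of mTEC. It had 5.08, 2.53, 2.44 and 2.59 FPKM in mTEC Trap and 4.87 and 2.34 FPKM in mTEC control libraries, and 0 in all 6 cTEC libraries. The groups of mTEC overlapped, and the log2 difference of Trap against control in mTEC was -0.13 ± 0.30 (SE, limma adjusted p = 0.931). The cTEC minus mTEC difference was -2.08 ± 0.21 (SE), a description only, since Rhox12 passed the filter through mTEC libraries alone. No window of 50 bases in Rhox12 occurred in another gene.

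Rhox4b was expressed in both epithelial populations. It had 2.95, 5.06, 4.04 and 1.18 FPKM in cTEC Trap, 5.91 and 5.31 FPKM in cTEC control, 4.05, 2.04, 2.40 and 4.15 FPKM in mTEC Trap, and 0 and 1.85 FPKM in mTEC control libraries. All Trap libraries lay below both controls in cTEC and above both controls in mTEC (beside 8.10% and 5.32% of all genes). The log2 differences were -0.71 ± 0.44 in cTEC (SE, limma adjusted p = 1.00) and 1.26 ± 0.44 in mTEC (limma adjusted p = 0.439). The difference between them was -1.98 ± 0.62, with an unadjusted p of 0.00687 and an adjusted p of 1.00 over all genes (limma). Rhox4b was higher in cTEC than in mTEC by 0.98 ± 0.31 (limma adjusted p = 0.0183), a call that was lost without cTEC control replicate 1 (limma adjusted p = 0.0605) or without mTEC control replicate 1 (limma adjusted p = 0.134). Of its 150-base windows, 74.1% occurred in other Rhox4 copies, so many of its reads cannot be told from theirs.

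The remaining rows were low. Rhox2b reached at most 1.04 FPKM, Rhox2c 2.75 FPKM in cTEC Trap replicate 3, and Rhox2f 1.94 FPKM in mTEC control replicate 2. Rhox6 reached 1.17 FPKM, Rhox8 0.86 FPKM and Rhox10 0.90 FPKM, each listed at 0 in all cTEC libraries. Rhox2f stood at 0.24, 0.55, 0.19 and 0.47 FPKM in cTEC Trap and at 1.13 and 1.83 FPKM in cTEC control libraries. All its cTEC Trap values lay below both controls (beside 8.10% of all genes), with a log2 difference of -0.86 ± 0.38 (SE). Rhox2f reached 1 FPKM only in control libraries of cTEC and mTEC and passed the filter through them alone. The filter thus favoured lower values with Trap, and the Rhox2f difference is a description. Of the 5 Rhox genes tested besides Rhox5 and Rhox2a, 0 passed for Trap in cTEC and 0 in mTEC (beside 0.00664% of all genes in each). Their median log2 differences were 0.00 and -0.13, beside -0.009 and -0.045 over all genes.

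**Figure D3:**
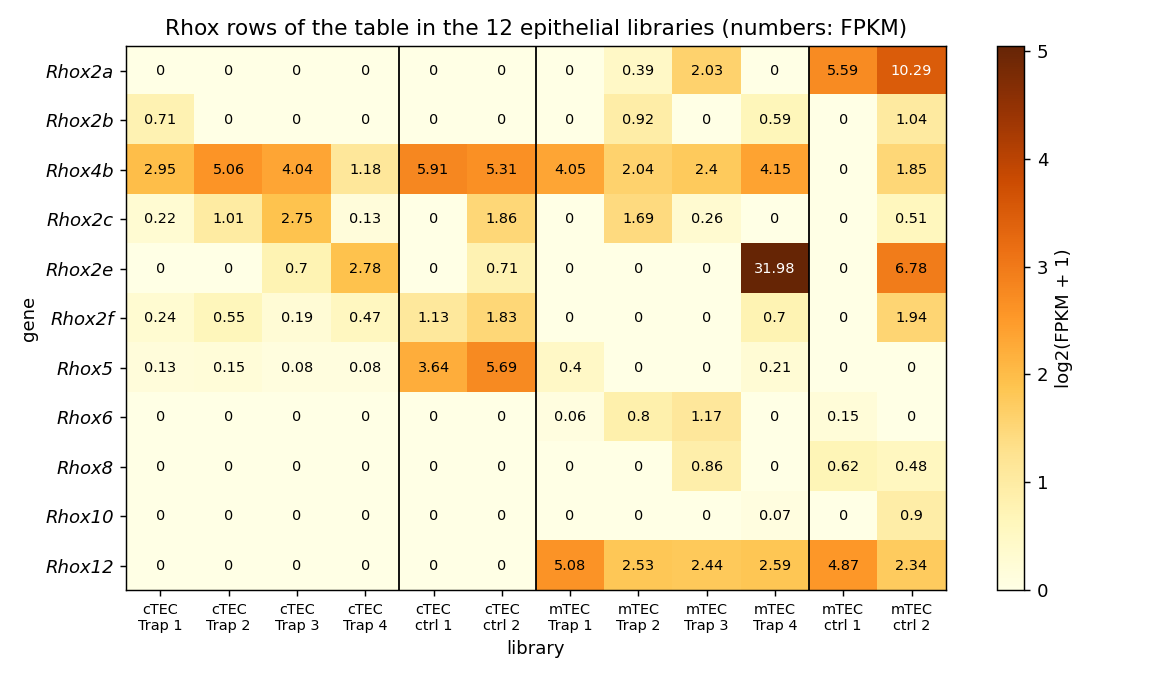
The 11 Rhox rows (vertical axis, in order along X) in the 12 epithelial libraries (horizontal axis), coloured by log2(FPKM + 1) with the FPKM value printed in each cell. Rhox12, Rhox6, Rhox8 and Rhox10 are at 0 in every cTEC library, Rhox5 is highest in the 2 cTEC controls, and Rhox2e in mTEC Trap replicate 4 (31.98 FPKM) is the highest value.

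Dppa3 was accompanied in mTEC by other genes of pluripotent and early germ cells. Of 14 tested, 11 were lower in cTEC than in mTEC and 1 was higher, beside 47.8% of all 15049 genes called, 32.1% lower and 15.7% higher, and their median log2 difference was -1.20 beside -0.17 over all genes. In this list 12 genes reached a mean of 1 FPKM in mTEC and 4 in cTEC. The filter thus favoured genes higher in mTEC, and the count and median are a description. The median of all genes moved to -0.05 when libraries were rescaled to the same total (TPM) and to 0.12 with quantile normalization, under which 8 of the 14 were lower and 2 higher. Over all genes, 4834 were lower and 2363 higher as deposited, 4070 and 3148 as TPM, and 3059 and 4230 with quantile normalization. Utf1, a chromatin-bound factor of embryonic stem cells, averaged 0.732 ± 0.73 FPKM in cTEC and 62.1 ± 23 FPKM in mTEC (SD, n = 6 each), a log2 difference of -5.24 ± 0.28 (limma adjusted p = 2.95e-09). Prdm1, a repressor that specifies germ cells and also acts in many lymphoid and epithelial cells, averaged 3.86 ± 1.67 FPKM in cTEC and 11.2 ± 1.51 FPKM in mTEC. Klf2 ran the other way, with a mean of 18.1 ± 2.52 FPKM in cTEC libraries against 5.64 ± 1.89 FPKM in mTEC libraries (limma adjusted p = 2.25e-05). Klf4, a factor of both stem cells and epithelia, was lower in cTEC by only 0.45 ± 0.16, and that call was lost as TPM (limma adjusted p = 0.130) and without cTEC control replicate 1 (0.183), cTEC Trap replicate 1 or 4 (0.0580 and 0.0539) or mTEC control replicate 1 (0.130). Over all groups, Prdm1 had its highest mean in endothelial controls (55.7 FPKM). Klf4 and Klf2 had theirs in CD140a+ mesenchyme (286 FPKM with Trap and 80.7 FPKM in control). Only Utf1 of these genes was highest in mTEC (67.8 FPKM with Trap), so the named genes are not as a set particular to mTEC. They were named for their high means, and this does not extend to the whole list. Of the list, 12 genes reached a mean of 1 FPKM in mTEC, 4 in CD140a+ mesenchyme, 6 in CD146+ mesenchyme and 7 in endothelium. Nanog, the pluripotency factor next to Dppa3 on chromosome 6, was at most 0.33 FPKM in the epithelial libraries and did not pass the filter.

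Of 18 tested genes of germline genome defence and meiosis, 6 were lower and 3 higher in cTEC than in mTEC (beside 32.1% lower and 15.7% higher over all genes), and the median was -0.15. These shares were near those of all genes. With quantile normalization the split was 4 lower and 7 higher. Piwil4, a piRNA-guided Argonaute of fetal male germ cells, averaged 0.437 ± 0.24 FPKM in cTEC and 5.99 ± 1.27 FPKM in mTEC (log2 difference -2.22 ± 0.19). Its difference is a description, since Piwil4 passed the filter only with mTEC libraries. Tex14, a component of the bridges between germ cells, averaged 1.20 ± 0.36 FPKM in cTEC and 9.26 ± 1.89 FPKM in mTEC (-2.25 ± 0.18, limma adjusted p = 1.27e-07). Tdrd7, a tudor protein also used in the lens, was higher in cTEC by 0.39 ± 0.12, a call lost without cTEC control replicate 2 (limma adjusted p = 0.112) or mTEC control replicate 1 (limma adjusted p = 0.0976), and with all 30 libraries in the fit (limma adjusted p = 0.117). Pld6, a mitochondrial enzyme of piRNA production, averaged 2.35 ± 1.47 FPKM in cTEC and 2.07 ± 2.06 FPKM in mTEC and did not pass (limma adjusted p = 0.946).

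Among oocyte genes, 4 of 10 tested were lower in cTEC than in mTEC and 0 were higher (beside 32.1% lower and 15.7% higher over all genes), with a median of -0.38. The share lower was near that of all genes. In this list 9 genes reached a mean of 1 FPKM in mTEC and 4 in cTEC, so the filter favoured genes higher in mTEC. Zp2, an egg coat glycoprotein, averaged 0.255 ± 0.16 FPKM in cTEC and 7.68 ± 1.87 FPKM in mTEC (log2 difference -2.74 ± 0.19). Ooep, an egg protein needed for early cleavage, averaged 0.485 ± 0.31 FPKM in cTEC and 7.04 ± 2.91 FPKM in mTEC (-2.41 ± 0.28). Zp2 and Ooep passed the filter only with mTEC libraries, so their differences are a description. Bpgm, an enzyme best known from red cells, was lower in cTEC by 1.04 on the log2 scale (difference -1.04 ± 0.16). H1foo, the oocyte linker histone, was highest in endothelium, where the Trap libraries averaged 17.2 ± 4.03 FPKM (SD, n = 4), and it did not pass between cTEC and mTEC (limma adjusted p = 0.580). With quantile normalization the oocyte split was 4 lower and 1 higher.

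Of 7 spermatid and cancer-testis genes tested, 1 was lower and 2 were higher in cTEC than in mTEC (beside 32.1% lower and 15.7% higher over all genes). Ldhc, the lactate dehydrogenase of sperm, averaged 0.783 ± 0.85 FPKM in cTEC and 3.85 ± 1.83 FPKM in mTEC (log2 difference -1.43 ± 0.32, limma adjusted p = 0.00203). Tktl1, a transketolase-like enzyme, was higher in cTEC by 0.64 ± 0.17, and Xlr4a, an X-linked gene of a lymphocyte-regulated family, was higher by 1.32 ± 0.44. The Xlr4a call was lost without cTEC control replicate 2, which had 12.6 FPKM (limma adjusted p = 0.161), and without either mTEC control (limma adjusted p = 0.0554 and 0.0679). Xlr4a has close copies, so its reads may be shared. Acrv1, an acrosome protein, did not pass (limma adjusted p = 0.228).

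**Figure D4:**
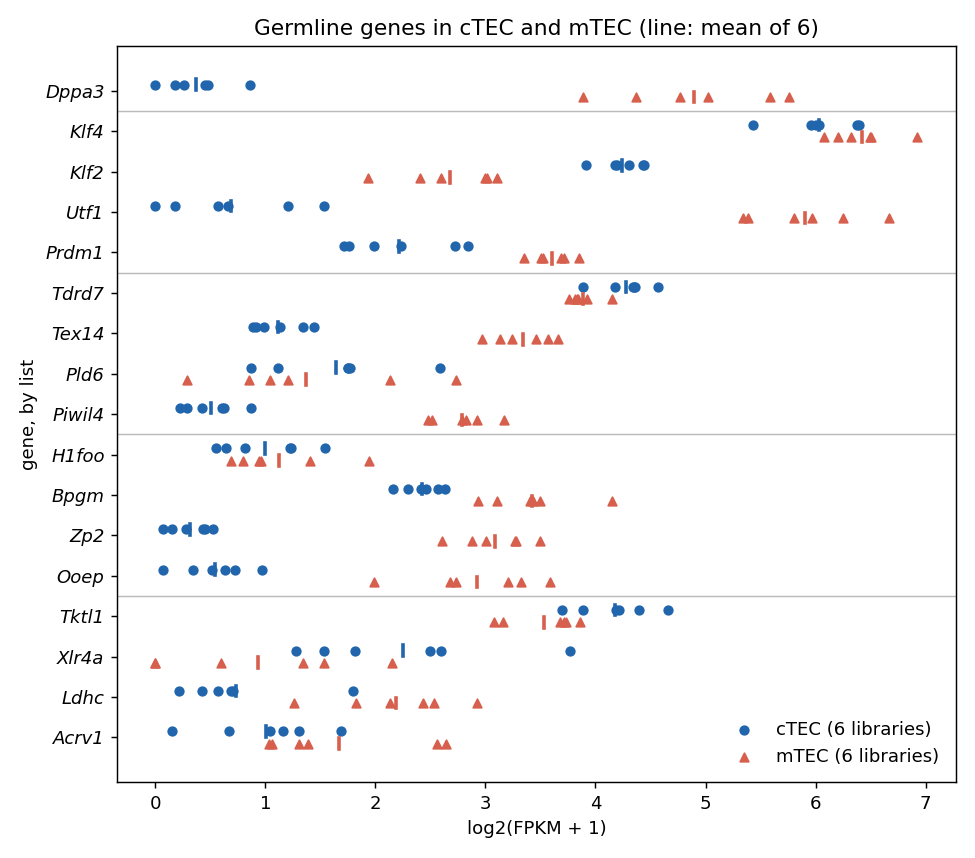
log2(FPKM + 1) (horizontal axis) of Dppa3 and of the named genes of 4 germline lists (vertical axis, lists separated by lines) in each of 6 cTEC (blue circles) and 6 mTEC (red triangles) libraries, with a short line at each mean. Dppa3, Utf1, Prdm1, Tex14, Piwil4, Bpgm, Zp2 and Ooep show no overlap between the populations, with cTEC lower, and Klf2 shows none with cTEC higher. The share of all genes without overlap was not counted, and 47.8% of all genes were called between cTEC and mTEC, so nothing is read from these separations. Dppa3, Piwil4, Zp2 and Ooep also passed the filter only with mTEC libraries.

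For comparison, 9 of 10 tested genes used as examples of tissue-restricted antigens, such as the milk protein gene Csn2, were lower in cTEC than in mTEC, and 0 were higher (beside 32.1% lower and 15.7% higher over all genes). Of these antigens 10 reached a mean of 1 FPKM in mTEC and 3 in cTEC, so the filter favoured this direction. The somatic gonad genes Sox9 and Clu, which are also widely used outside the gonad, averaged 22.3 ± 3.97 and 17.4 ± 3.22 FPKM in cTEC against 38 ± 7.62 and 95.2 ± 15.5 FPKM in mTEC. Of 12 tested genes of that list, 9 were lower in cTEC and 0 were higher, and 6 were lower and 2 higher with quantile normalization. The filter favoured genes higher in mTEC here too, where 11 reached a mean of 1 FPKM against 6 in cTEC. Dhh, a ligand of Sertoli and Schwann cells, averaged 0.948 ± 0.32 FPKM in cTEC and 4.89 ± 2.45 FPKM in mTEC, and Unc5c, a netrin receptor, 3.45 ± 0.42 FPKM in cTEC and 6.62 ± 1.43 FPKM in mTEC. Macrophage markers also moved with the population, with summed FPKM of 9.46 to 19.5 across cTEC libraries against 224 to 372 across mTEC libraries. Most of that was Lyz2, at 207 to 342 FPKM in mTEC, while C1qa was at 0.16 FPKM or less and Adgre1 at 3.55 FPKM or less in all 12 libraries. Their part in the mTEC values was not tested.

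No gene of the germline lists was called for Trap in either epithelial population. The counts in cTEC and in mTEC were 0 of 14 for pluripotency and early germ cell genes, 0 of 18 for genome defence and meiosis, 0 of 10 for oocyte and 0 of 7 for spermatid and cancer-testis genes. Over all genes the share called was 0.00664% in each population, so nothing is read from these counts of 0. Their median log2 differences in mTEC were 0.12, -0.20, -0.12 and -0.29. At an unadjusted p below 0.05 in mTEC stood Tex11, Brdt, Khdc3, Bpgm and Prm1, of which Prm1 was higher and the other 4 lower with Trap (limma adjusted p = 0.426 to 0.556). Over all genes, 1291 of 15049 had such a p in mTEC (limma), and nothing is read from the genes named. The tissue-restricted antigens had a median of -0.46 in mTEC, with 0 of 10 called. Aire and Fezf2 differed in mTEC by -0.04 ± 0.28 and 0.03 ± 0.22 (SE, limma adjusted p = 0.980 for both).

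DNA methylation and histone marks hold Rhox genes and Dppa3 silent in most somatic cells, and Dppa3 protein binds Uhrf1, the cofactor of the maintenance methyltransferase Dnmt1. No regulator of this machinery passed for Trap. Of 24 tested, 0 were called in cTEC and 0 in mTEC, with medians of -0.08 and 0.02. Only 0.00664% of all genes were called in each population, so nothing about this machinery is read from these counts. In mTEC, Dnmt1 differed by -0.27 ± 0.22, the de novo methyltransferases Dnmt3a and Dnmt3b by -0.01 ± 0.17 and 0.20 ± 0.29, and their cofactor Dnmt3l by -0.58 ± 0.41. In cTEC, Dnmt1 differed by -0.19 ± 0.22, Dnmt3a by -0.16 ± 0.17, Dnmt3b by 0.16 ± 0.29 and Uhrf1 by -0.31 ± 0.23. The oxidase Tet3 (0.46 ± 0.17, unadjusted p = 0.0168) and the repressor E2f6 (0.64 ± 0.27, unadjusted p = 0.0338) had the lowest p of the 24 in mTEC and did not pass (limma adjusted p = 0.469 and 0.545). An unadjusted p below 0.05 in mTEC was reached by 1291 of all 15049 genes (limma). The oxidases Tet1 and Tet2 and the histone methyltransferase Setdb1 differed by -0.34 ± 0.18, 0.01 ± 0.15 and 0.01 ± 0.20 in mTEC and by -0.09 ± 0.18, 0.08 ± 0.15 and 0.28 ± 0.20 in cTEC.

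**Figure D5:**
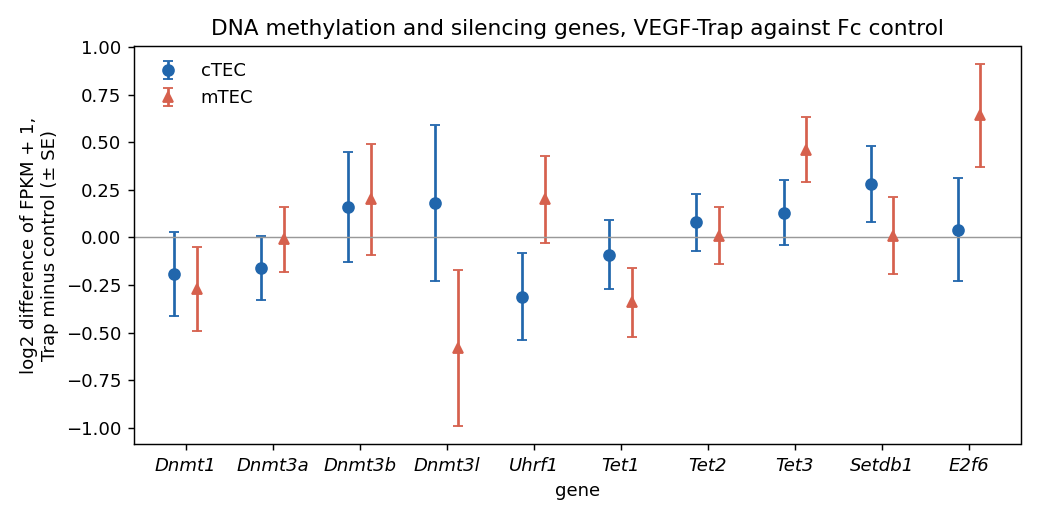
log2 difference of FPKM + 1, Trap minus control (vertical axis, ± SE from limma), of 10 DNA methylation and silencing genes (horizontal axis) in cTEC (blue circles) and mTEC (red triangles). None passed the threshold, beside 0.00664% of all genes in each population, and the values ran from -0.58 for Dnmt3l to 0.64 for E2f6, both in mTEC.

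Between the populations, 9 of the 24 regulators were lower and 3 higher in cTEC than in mTEC (beside 32.1% lower and 15.7% higher over all genes), a split that was 5 lower and 5 higher as TPM and 3 lower and 5 higher with quantile normalization. Dnmt3l, a germ cell cofactor of de novo methylation, averaged 0.113 ± 0.21 FPKM in cTEC and 4.78 ± 2.4 FPKM in mTEC (log2 difference -2.40 ± 0.29) and was at most 0.10 FPKM outside epithelium. The Dnmt3l difference is a description, since it passed the filter only with mTEC libraries. Uhrf1 averaged 10.4 ± 2.11 FPKM in cTEC and 21.7 ± 4.68 FPKM in mTEC (-0.91 ± 0.16, limma adjusted p = 3.40e-04). E2f6, which silences germline genes in other tissues, was higher in cTEC by 0.74 ± 0.19. Dnmt1, Dnmt3a, Tet1 and Tet2 did not pass between cTEC and mTEC.

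Of 8 tested genes that flank Dppa3, 4 were lower in cTEC than in mTEC and 0 were higher (beside 32.1% lower and 15.7% higher over all genes; 3 lower and 1 higher with quantile normalization), and 0 passed for Trap in cTEC or mTEC (beside 0.00664% of all genes in each). Gdf3, a TGF-beta family ligand of pluripotent cells, averaged 0.193 ± 0.13 FPKM in cTEC and 4.53 ± 2.22 FPKM in mTEC, and passed the filter only with mTEC libraries. Apobec1, a cytidine deaminase that edits RNA, averaged 12.9 ± 2.65 FPKM in cTEC and 53.2 ± 9.34 FPKM in mTEC. Slc2a3, a glucose transporter, was lower in cTEC by 0.82 on the log2 scale (-0.82 ± 0.18), a call lost with quantile normalization (limma adjusted p = 0.443). Foxj2, C3ar1, Necap1 and Clec4a1 were tested and did not pass, and Nanog and Clec4a3 were below the filter.

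Of 11 tested genes that flank the Rhox cluster, 2 were lower (Ndufa1 and Nkrf) and 2 higher (Lamp2 and Cul4b) in cTEC than in mTEC (beside 32.1% lower and 15.7% higher over all genes; 1 lower and 3 higher with quantile normalization), and 0 passed for Trap in cTEC or mTEC (beside 0.00664% of all genes in each). Lamp2, a lysosomal membrane protein, averaged 206 ± 9.1 FPKM in cTEC and 72.9 ± 6.28 FPKM in mTEC. The call of Ndufa1 was lost without mTEC control replicate 1 (limma adjusted p = 0.0537), and that of Nkrf without cTEC control replicate 1 (limma adjusted p = 0.0633) and with quantile normalization (limma adjusted p = 0.0681). Akap14, Rnf113a1, Nkap, Upf3b, Zbtb33, Tmem255a and Sept6 did not pass, and Atp1b4 was below the filter.

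The genes most like each of the 3 were ranked by Pearson's r of log2(FPKM + 1) across libraries, which share depth and sorting, as a description. Over all 30 libraries, Dppa3 ran with St18 (r = 0.989), Rgs21, Myh15, Fabp1 and H2-M10.5, and the last of these had r = 0.987. Rgs21, a regulator of G protein signalling, had 8.96, 7.98, 9.83 and 10.29 FPKM in mTEC Trap and 11.81 and 16.32 FPKM in mTEC control libraries. Over the 12 epithelial libraries the first was Fmo2 (r = 0.991), followed by Fabp9, Pla2g4a, Dio1 and Resp18. Rhox2a ran with Magea1 (r = 0.967), Sprr3, Ucn3, a gene with only a clone name and Atp12a over 30 libraries and with Cyp4b1 (r = 0.978), Daw1, Wbp2nl, Magea1 and Tyro3 over 12. Rhox5 had no close partner. Its highest r was 0.749 over 30 libraries, with RP24-63B17.5, followed by Vmn2r57, Sprr2e, Tmem169 and Rhox2f, and 0.844 over 12, with Ccnjl, followed by Actg1, Zbtb34, Glod4 and Morn3. For Rhox5 and Rhox2a these values rest on 2 or 3 libraries above 1 FPKM.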

How the data were processed

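Bulk RNA-seq was made from 30 libraries of sorted neonatal mouse thymic stroma, 5 populations with 4 Trap and 2 control libraries each. The authors deposited 1 table of FPKM values, rounded to 2 decimals, and how they were computed is not given in the sources used here. Per the labels' protocols, RNA was amplified to cDNA (Ovation RNA-Seq V2) and read as paired ends. Per the submitters' processing notes, bcl2fastq 2.17, STAR and DESeq2 were used and the build was GRCm38, with no role stated. FPKM sums ran from 184608 to 241993 per library, r within populations from 0.895 to 0.982, and 0 pairs of libraries were identical. In all, 27 symbols that had turned into dates were restored from gene IDs.

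FPKM were analysed as log2(FPKM + 1) with limma 3.58.1 in R 4.3.3 (group means, empirical Bayes with trend, two-sided, Benjamini-Hochberg over all genes kept, call at adjusted p below 0.05). The epithelial fit held 12 libraries and the comparison of epithelium with the other stroma 30, with genes at 1 FPKM or more in at least 2 libraries. The epithelial fit was checked on simulated data. Depth was estimated from the spacing of low FPKM values against gene length.

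The 3 genes and the lists were chosen with earlier results of these data known. A limma test of Trap against control had been planned for the 3 genes, but they may have been chosen on that contrast, so they are given as values with no test. Trap contrasts in mesenchyme and endothelium are not described, since the 3 genes are at or near 0 there. Genes named are all Rhox rows, up to 4 of highest mean per germline list among those reaching 1 FPKM in a group, 10 silencing genes, Aire and Fezf2, the flanking genes, and the 5 most alike per gene. Other names were chosen after their values were seen: Magea1, Csn2, Lyz2, C1qa, Adgre1, and Tex11, Brdt, Khdc3 and Prm1. Among the genes flanking the Rhox cluster, those without a row were not analysed here. The values of 1 gene are not reported here. Sequences and coordinates come from GENCODE M21 (GRCm38). Alternatives were other pseudocounts, filters, scalings, sets of libraries, variance models, blocks on the replicate number and leaving out each library.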

Additional observations from a re-analysis of the deposited data

Results flagged for a closer look

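In 103 groups of 4 Trap libraries, 13 had 1 library far from the other 3 by Dixon's test, where chance gives about 1 in 20. That rate does not apply to the 7 in which the other 3 libraries were all at 0, since any value above 0 then stands out, even 1 fragment. It also assumes normally distributed values, while the test used untransformed FPKM. Without those 7, the flags left were near 1 in 20 of the groups, and the flag of the Rhox2 sum repeats the Rhox2e value. Most of the 13 flags were Rhox genes in single libraries. In mTEC Trap replicate 4, Rhox2e had 32 FPKM where the other 3 had 0, Rhox2f had 0.7 FPKM against 0, Rhox10 had 0.07 FPKM against 0, and the sum of the 5 Rhox2 rows was 33.3 FPKM against 0 to 3 FPKM. Rhox2c had 1.69 FPKM in mTEC Trap replicate 2 against 0 to 0.26 FPKM in the others. Rhox8 had 0.86 FPKM and Magea1 0.29 FPKM in mTEC Trap replicate 3, each against 0. Rhox12 had 5.08 FPKM in mTEC Trap replicate 1 against 2.44 to 2.59 FPKM, and Xlr4a had 3.43 FPKM there against 0 to 0.51 FPKM. Rhox2b had 0.71 FPKM in cTEC Trap replicate 1 against 0. In cTEC Trap replicate 4, Dnmt3l had 0.54 FPKM against 0 to 0.09 FPKM and Tdrd7 had 13.8 FPKM, below the 19.3 FPKM or more of the others. Dppa3 had 0.49 FPKM in CD146 Trap replicate 4 against 0.

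Rhox4b differed with Trap in opposite directions, lower in all 4 Trap libraries of cTEC and higher in all 4 of mTEC, and the difference of the 2 log2 changes was -1.98 (limma interaction, adjusted p = 1.00). Over all genes, 8.10% lay below both controls in cTEC and 5.32% above both in mTEC. Rhox4b was picked from the Rhox rows by this pattern, and many of its reads cannot be told from those of other Rhox4 copies.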

How the results depend on the processing

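The signs of the 3 genes' Trap differences were kept under every alternative run, while their sizes depended on the scale. The kept signs lend no weight to the differences, since the 3 genes may have been chosen on this contrast. The sign of Rhox5 was also fixed by the filter, which it passed through the cTEC controls alone. Rhox5 in cTEC, -2.33 as reported, was -4.49 with a pseudocount of 0.1, -0.91 with 5, -3.91 as TPM and -2.13 with quantile normalization. Rhox2a in mTEC, -2.59 as reported, was -4.59 with 0.1, -1.20 with 5, -3.90 as TPM and -1.37 for the sum of the 5 Rhox2 rows. As TPM the mean levels over 6 libraries were 7.88 for Rhox5, 13.4 for Rhox2a and 140 for Dppa3, against 1.63, 3.05 and 31.9 FPKM. Leaving out 1 library at a time gave -2.35 to -2.32 for Rhox5 (4 values, since without a cTEC control it failed the filter), -2.98 to -2.2 for Rhox2a and -1.33 to -0.95 for Dppa3, and mean levels of 0.816 to 1.94, 1.6 to 3.66 and 27.6 to 35.5 FPKM.

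The counts of genes called for Trap were unstable. In cTEC (1 as reported) the count was 0 with a pseudocount of 0.1, as TPM and with the 6 cTEC libraries alone, and 0 to 1 when a library was left out. In mTEC (1 as reported) it was 0 with 0.1, as TPM and with the 6 mTEC libraries alone, 12 with a pseudocount of 5, 19 with no filter, 3 with quantile normalization, 57 with all 30 libraries in the fit, and 0 to 11 when a library was left out. For the mean of both populations (0 as reported) it was 3 with no filter and 11 with all 30 libraries, and for the difference between them (0 as reported) 3 with a pseudocount of 5, 3 with no filter and 13 with all 30 libraries. The cause was not tested.

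Of 50 named genes and comparisons, 14 changed side of the threshold under some alternative, in 50 of 1240 values (48 lost, 2 gained, 0 reversed); the gains were Rhox2f, higher in cTEC with quantile normalization and without mTEC control replicate 2. No label ties libraries with the same replicate number. Deviations correlated at -0.275 to 0.081 between Trap and control libraries of the same number, and at 0.028 to 0.102 between cTEC and mTEC Trap libraries of the same number (-0.086 to 0.082 for other numbers). The limit set was 0.1 for every pair. The highest pair reached it at 0.102, but not every pair did. The Y-linked sums keep their order over the replicate numbers in all 5 populations, a hint from the data that a number may mark the same pups across populations. With the replicate number as a fixed block (replicate block), the differences were -2.28 for Rhox5, -2.73 for Rhox2a and -0.93 for Dppa3, and the Trap counts were 0 in cTEC and 0 in mTEC; for cTEC minus mTEC the count was 7177 (7197 without the block), and 7305 with treatment and number as a random block. The planned permutation test of the 3 genes was not run, since they may have been chosen on that contrast. Depth limits Rhox5 and Rhox2a, which rest on 144 fragments or fewer in any library.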
